A study of Mus musculus with 9 samples.

Results

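Heat shock proteins and their partner chaperones were followed across 3 mouse knockout cell lines. Members were the probe sets whose deposited description begins with heat shock, DnaJ (Hsp40) homolog or chaperonin, upper and lower case treated alike. This gave 128 of 45101 probe sets, which stand for 55 of the 9933 genes that could be named. Each gene was read through its brightest probe set. One gene, Hsf2, did not pass the filter on dim signals, which left 54 members among 9349 genes tested. By role they were 2 of the Hsp110 type, 2 of Hsp90, 9 of Hsp70, 4, 9 and 9 DnaJ proteins of types A, B and C, 9 chaperonins, 5 small heat shock proteins and 3 of the 4 genes described as heat shock factors or their binding proteins. The remaining 2, Tmem132a and Vasn, carry other names today. Some well-known chaperones carry other descriptions and are not members, among them Hspd1, Hsp90b1 and Tcp1.

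Chaperones bind unfolded or partly folded proteins and keep them from clumping. Hsp70 proteins work in a cycle of ATP binding and release in which DnaJ proteins deliver the client and exchange factors, the Hsp110 proteins among them, reset the chaperone. Hsp90 finishes the folding of kinases and hormone receptors, and the chaperonin ring of the cytosol, made of Tcp1 and the Cct subunits, folds actin and tubulin. Heat shock factors switch on many of these genes during stress, and proliferating cells keep a large part of the machinery on without stress.

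The groups were 3 cultured mouse lines, EBFko, Pax5ko and RAG2ko, each named for the gene it lacks and each read on 3 Affymetrix arrays, with no treatment. The EBF and Pax5 proteins switch on genes of B cells, whereas RAG2 acts in the cutting of antigen receptor genes. The labels call EBFko lymphoid specified, Pax5ko B lineage specified and RAG2ko B lineage committed. EBFko and Pax5ko cells were grown with recombinant human Flt3 ligand at 10 ng/ml and recombinant mouse IL-7 at 10 ng/ml, whereas RAG2ko cells received IL-7 at 10 ng/ml alone. Medium and genotype therefore cannot be told apart in either comparison with RAG2ko. Nothing in the labels shows that the 3 samples of a line came from different cultures. Every p-value here therefore reflects the spread among these samples alone, and that spread may be technical.

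Promoter sequences are shown for the members on which the results turn, because heat shock factors bind repeats of an inverted GAA unit and the stress response of the endoplasmic reticulum acts through a longer element. RefSeq promoters of build GRCm38.p6, each running from 250 bases before to 50 bases after a start site, were found for 45 of the 55 member genes. Capitals mark letters of the heat shock element (GAANNTTC or TTCNNGAA for 2 units, and the same followed by NNGAA or NNTTC for 3 units, which overlap the shorter ones) or of the endoplasmic reticulum stress element (CCAAT, 9 bases of any kind and CCACG), searched on both strands. Hsph1, Dnajb2 and Dnajc6 were highest in Pax5ko, Hspe1 carries overlapping runs of heat shock units and was called in 1 comparison without RAG2ko replicate 3, and Hspa5 and Dnajc3 carry the stress element.
Hsph1, chr5:149636266-149636565, minus strand: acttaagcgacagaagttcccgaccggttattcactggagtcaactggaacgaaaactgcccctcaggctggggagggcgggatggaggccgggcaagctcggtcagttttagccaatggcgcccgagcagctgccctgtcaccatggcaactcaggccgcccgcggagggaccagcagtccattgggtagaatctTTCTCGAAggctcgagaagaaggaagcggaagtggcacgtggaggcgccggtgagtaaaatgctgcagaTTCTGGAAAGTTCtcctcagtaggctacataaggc
Dnajb2, chr1:75236173-75236472, plus strand: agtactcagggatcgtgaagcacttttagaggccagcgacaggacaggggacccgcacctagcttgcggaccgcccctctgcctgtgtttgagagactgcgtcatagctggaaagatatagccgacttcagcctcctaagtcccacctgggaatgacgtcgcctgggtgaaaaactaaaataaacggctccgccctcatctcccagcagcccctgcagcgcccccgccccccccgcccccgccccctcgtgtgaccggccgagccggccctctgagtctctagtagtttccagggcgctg
Dnajc6, chr4:101507726-101508025, plus strand: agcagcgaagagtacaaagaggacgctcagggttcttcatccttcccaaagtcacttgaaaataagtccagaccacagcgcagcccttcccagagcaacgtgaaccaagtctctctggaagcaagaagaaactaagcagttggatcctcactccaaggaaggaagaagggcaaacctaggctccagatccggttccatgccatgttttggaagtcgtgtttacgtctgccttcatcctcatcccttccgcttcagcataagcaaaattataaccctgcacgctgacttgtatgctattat
Hspe1, chr1:55087898-55088197, plus strand: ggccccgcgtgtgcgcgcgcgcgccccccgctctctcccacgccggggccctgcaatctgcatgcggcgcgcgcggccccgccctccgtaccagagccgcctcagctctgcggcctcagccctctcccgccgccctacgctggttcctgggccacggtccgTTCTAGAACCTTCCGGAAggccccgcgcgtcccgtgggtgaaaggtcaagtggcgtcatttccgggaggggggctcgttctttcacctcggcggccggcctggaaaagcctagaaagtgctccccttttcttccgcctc
Hspa5, chr2:34771840-34772139, plus strand: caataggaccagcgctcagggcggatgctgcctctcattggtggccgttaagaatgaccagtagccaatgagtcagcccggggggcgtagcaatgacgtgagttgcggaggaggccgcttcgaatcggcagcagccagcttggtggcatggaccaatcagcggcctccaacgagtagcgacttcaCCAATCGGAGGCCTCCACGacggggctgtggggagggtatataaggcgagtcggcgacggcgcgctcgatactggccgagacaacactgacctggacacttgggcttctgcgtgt
Dnajc3, chr14:118937682-118937981, plus strand: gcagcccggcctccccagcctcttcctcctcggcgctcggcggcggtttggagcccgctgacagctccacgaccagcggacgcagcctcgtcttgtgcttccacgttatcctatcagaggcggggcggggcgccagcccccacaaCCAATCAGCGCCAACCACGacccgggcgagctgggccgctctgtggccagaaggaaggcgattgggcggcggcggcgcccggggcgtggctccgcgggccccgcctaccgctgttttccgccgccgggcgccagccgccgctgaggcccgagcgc

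A pair of heat shock units was found for 12 of the 45 member genes and for 17.0% of all 27025 genes in the promoter table. A run of 3 units was found for 3 members, Hsph1, Hspe1 and Dnajb6, against 0.662% of all genes. The endoplasmic reticulum stress element was found for Hspa5 and Dnajc3 and for 0.137% of all genes. Neither Dnajb2 nor Dnajc6 held any of these letters in the windows of their 2 listed start sites. The members with a pair of units were Cct2, Cct5, Cct6a, Dnaja1, Dnaja4, Dnajb6, Hspa1a, Hspb1, Hspb3, Hspb8, Hspe1 and Hsph1. A match is a description of letters and not of binding.

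The arrays were alike in brightness, with median signals of 73.4 to 97.6, and 41.0% to 47.3% of probe sets per array lay below a signal of 64, which is 6 on the log2 scale used from here on. Replicate 3 of RAG2ko stood apart. A list of 24 stromal genes, 23 of them tested, had a mean log2 signal of 5.44 and 6.40 on RAG2ko replicates 1 and 2 and of 8.75 on replicate 3. In the other lines that mean ran from 7.98 to 9.73. The Rag2 probe set gave 5.96 and 5.60 on the first 2 arrays labelled RAG2ko and 9.10 on the third, and 7.16 to 10.17 in the other lines. The Ebf1 probe set gave 10.67 to 11.10 in EBFko, above Pax5ko at 9.89 to 10.06 and below RAG2ko at 11.76 to 12.44. The Pax5 probe set gave 2.64 to 5.62 in Pax5ko, 3.06 to 6.32 in EBFko and 6.77 to 7.33 in RAG2ko. The Ebf1 signal in EBFko and the Rag2 signal on RAG2ko replicate 3 thus did not bear out the labels, and line names are used here as labelled. Whether these probe sets lie in the deleted parts is not given in the sources used here. Called differences of members with RAG2ko are therefore given with and without its replicate 3, and those of partner genes with a count of the calls kept without it.

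Most of the machinery was bright and close to level over the lines. Members had a median log2 signal of 10.47 and 40 of 54 lay above 6 on all 9 arrays, against a median of 8.10 and 5244 of 9349 genes for all genes tested. The median SD within a line was 0.19 for members and 0.34 for all genes. Of the 54 members, 8 were called in at least 1 of the 3 comparisons at an adjusted p under 0.05 in limma, which is 14.8% against 29.9% of all genes.

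The comparison of Pax5ko with EBFko sets cells called B lineage specified against cells called lymphoid specified, in the same medium. Dnajc6, Dnajb2, Hsph1 and Dnaja3 were higher in Pax5ko and Hspa2 was lower, which made 4 higher and 1 lower of 54 members. Over all genes 10.7% were called in this comparison, 5.08% higher and 5.57% lower, against 9.26% of the members. The arrays of the lines did not overlap for 21 of 54 members, against 34.9% of all genes. The median difference of the members was 0.01 and that of all genes -0.02, and the median size of a difference was 0.21 for members against 0.35 for all genes.

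The comparison of RAG2ko with Pax5ko sets B lineage committed cells against B lineage specified cells. Hspa14 was higher in RAG2ko and Dnajc6, Dnajb2 and Hsph1 were lower, so 1 member was called higher and 3 were called lower. Over all genes 17.9% were called, 9.80% higher and 8.10% lower, against 7.41% of the members. The arrays did not overlap for 13 members, against 38.2% of all genes. The median difference was -0.04 for members and 0.07 for all genes, with median sizes of 0.29 and 0.47. Without RAG2ko replicate 3 the call of Dnajc6 was lost, at -4.08 with an adjusted p of 0.0784, and Dnajc3 (-0.63, adjusted p = 0.0466) and Hspb1 (-2.26, adjusted p = 0.0421) were called lower.

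The comparison of RAG2ko with EBFko sets B lineage committed cells against lymphoid specified cells. Dnaja3 and Dnajb11 were higher in RAG2ko and Dnajb1 was lower. Over all genes 21.8% were called, 11.2% higher and 10.6% lower, against 5.56% of the members. The arrays did not overlap for 13 members, against 39.5% of all genes. The median difference was -0.15 for members and 0.06 for all genes, with median sizes of 0.26 and 0.50. The sign of the members' median turned with the scaling, to 0.03 without quantile normalization and 0.17 with arrays centred on their medians, and in RAG2ko against Pax5ko it turned to 0.08 and 0.07. Without RAG2ko replicate 3, Hspe1 (0.53, adjusted p = 0.0139) was also called higher and Hspb1 (-2.23, adjusted p = 0.0372) lower. Hspa12a was called lower as well (adjusted p = 0.0430), but its RAG2ko signals of 2.24 and 4.87 lay below 6, and with signals below 64 raised to 64 the difference was -0.44. The comparisons share their groups in pairs, so no agreement between them is independent.

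**Figure D1:**
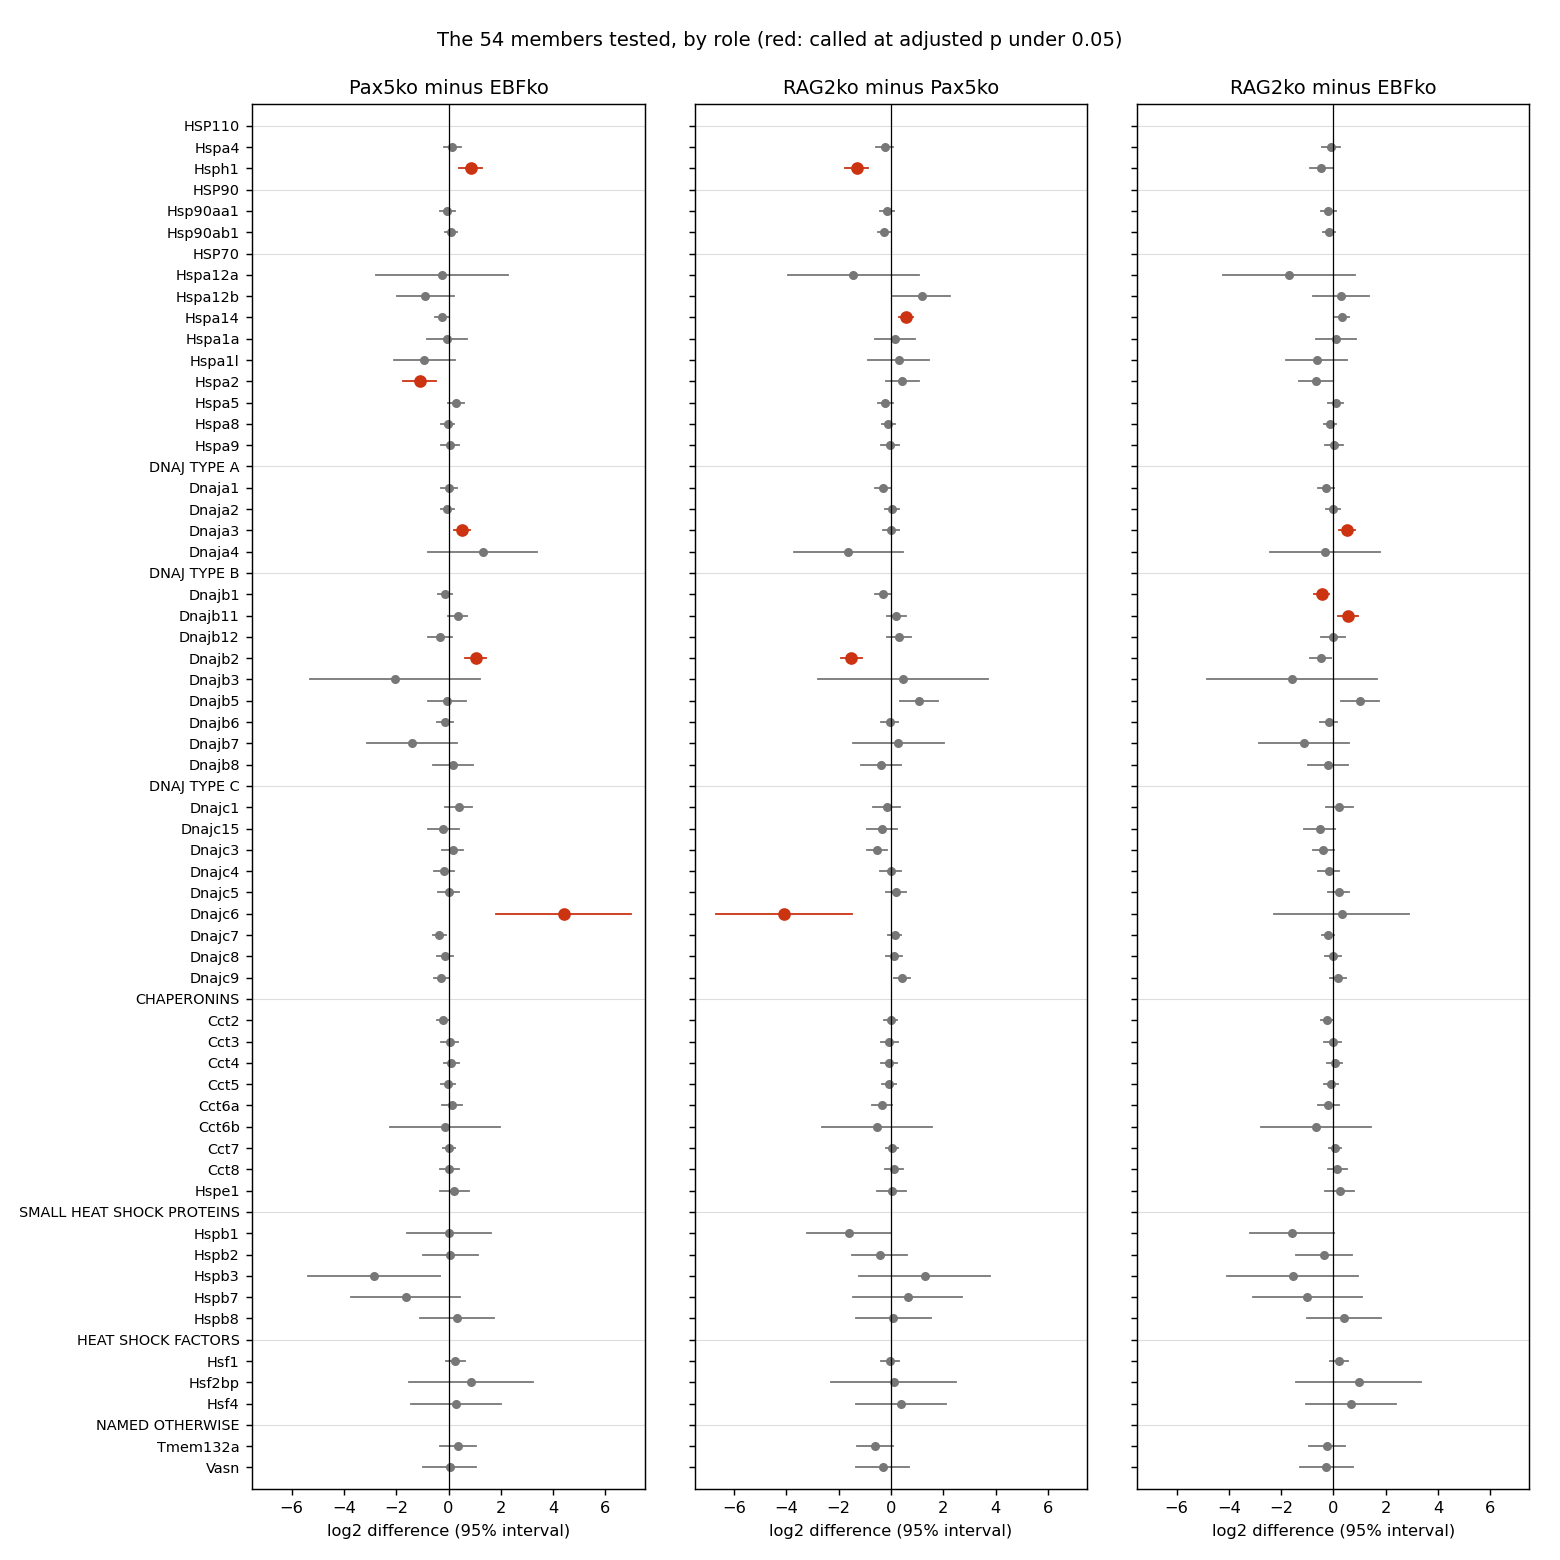
Log2 difference of each of the 54 members tested with its 95% interval (horizontal axis) in the 3 comparisons, grouped by role; red marks calls at an adjusted p under 0.05. Most members sit near 0 with narrow intervals, the wide intervals belong mainly to dim members, and Dnajc6 has differences of 4.40 and -4.09 in the comparisons of Pax5ko with EBFko and of RAG2ko with Pax5ko.

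Hsph1 was called in both comparisons with Pax5ko. It encodes the Hsp110 protein that acts as an exchange factor for Hsp70, and its log2 signals were 11.26, 11.33 and 11.27 in EBFko, 11.92, 12.33 and 12.17 in Pax5ko and 11.02, 11.02 and 10.43 in RAG2ko. All Pax5ko arrays lay above all other arrays, and all RAG2ko arrays lay below all EBFko arrays. Hsph1 was 1.81-fold higher in Pax5ko than in EBFko, a log2 difference of 0.85 ± 0.19 (SE, adjusted p = 0.0313). In RAG2ko it was lower than in Pax5ko by 1.32 ± 0.19 (adjusted p = 0.00381), or by 1.12 without RAG2ko replicate 3 (adjusted p = 0.00330). Its difference between RAG2ko and EBFko of -0.46 ± 0.19 did not pass (adjusted p = 0.133). The second probe set of Hsph1 gave means of 11.01, 11.50 and 10.54 in EBFko, Pax5ko and RAG2ko and was also called lower in RAG2ko than in Pax5ko in the fit over every probe set (-0.96 ± 0.17, adjusted p = 0.014). The call against EBFko was lost when any 1 EBFko array, or replicate 2 or 3 of Pax5ko, was left out.

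The other Hsp110 member, Hspa4, did not pass by its brightest probe set. Its log2 signals were 12.77, 12.81 and 12.69 in EBFko, 12.82, 12.96 and 12.91 in Pax5ko and 12.83, 12.78 and 12.40 in RAG2ko. A dimmer probe set of Hspa4 gave 9.77, 9.72 and 9.75, then 9.59, 9.89 and 9.78, then 8.90, 8.83 and 8.90 over the same arrays. That probe set separated RAG2ko from both other lines without overlap. In the fit over every probe set, where 12.6% and 9.92% of all probe sets were called in RAG2ko against EBFko and against Pax5ko, it was lower by 0.87 ± 0.14 (adjusted p = 0.0074) and by 0.88 ± 0.14 (adjusted p = 0.0087). A further probe set gave 11.30, 11.35 and 11.32 in EBFko and 11.08, 11.20 and 11.34 in Pax5ko, with all RAG2ko arrays below these and the lowest at 10.50, and was not called. The call thus depended on the probe set, and some descriptions of heat shock protein 4 lead by accession to Hspa14.

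Dnajb2, a type B protein known from neurons that can hand ubiquitin-marked clients to the proteasome, is described in the files as DnaJ subfamily B, member 10. Its log2 signals were 7.0, 6.64 and 7.14 in EBFko, 8.06, 7.91 and 7.92 in Pax5ko and 6.22, 6.60 and 6.51 in RAG2ko. The 3 lines did not overlap. Dnajb2 was 2.05-fold higher in Pax5ko than in EBFko (1.04 ± 0.17, adjusted p = 0.00898) and 2.86-fold lower in RAG2ko than in Pax5ko (-1.52 ± 0.17, adjusted p = 0.00115). Without RAG2ko replicate 3 the latter was -1.55 (adjusted p = 0.00337). Of the 21 alternatives run on single genes, every one with a test kept both calls. The untested one, the deposited ratios described below, kept both directions.

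Dnajc6 encodes auxilin, which recruits Hsp70 to strip clathrin from vesicles and is best known from nerve cells. Its log2 signals were 10.27, 10.10 and 10.29 in Pax5ko, 6.17, 3.08 and 8.20 in EBFko and 6.11, 6.17 and 6.10 in RAG2ko. The Pax5ko arrays were tight and far above all others, while the EBFko arrays spread over more than 5 units and 1 of them lay below 6. The difference was 4.40 ± 1.11 against EBFko (adjusted p = 0.0474), which became 3.43 with signals below 64 raised to 64, and -4.09 ± 1.11 for RAG2ko against Pax5ko (adjusted p = 0.0424). Another 2 probe sets of Dnajc6 read 6.71, 7.25 and 6.45 and 7.11, 6.99 and 7.03 in Pax5ko and lay below 6 on every EBFko and RAG2ko array. Against a floor of 6 they were higher in Pax5ko than in either line by 0.80 and 1.04, with no test at that floor. The fit over every probe set, which called 5.21% of all probe sets in Pax5ko against EBFko and 9.92% in RAG2ko against Pax5ko, called the first in both comparisons and the second in the latter, from signals below 6 whose sizes are not exact. A further probe set lay below 6 on all arrays. For the brightest probe set, leaving out any 1 Pax5ko or RAG2ko array, or EBFko replicate 1, took both calls past the threshold, at adjusted p of 0.0638 to 0.127.

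**Figure D2:**
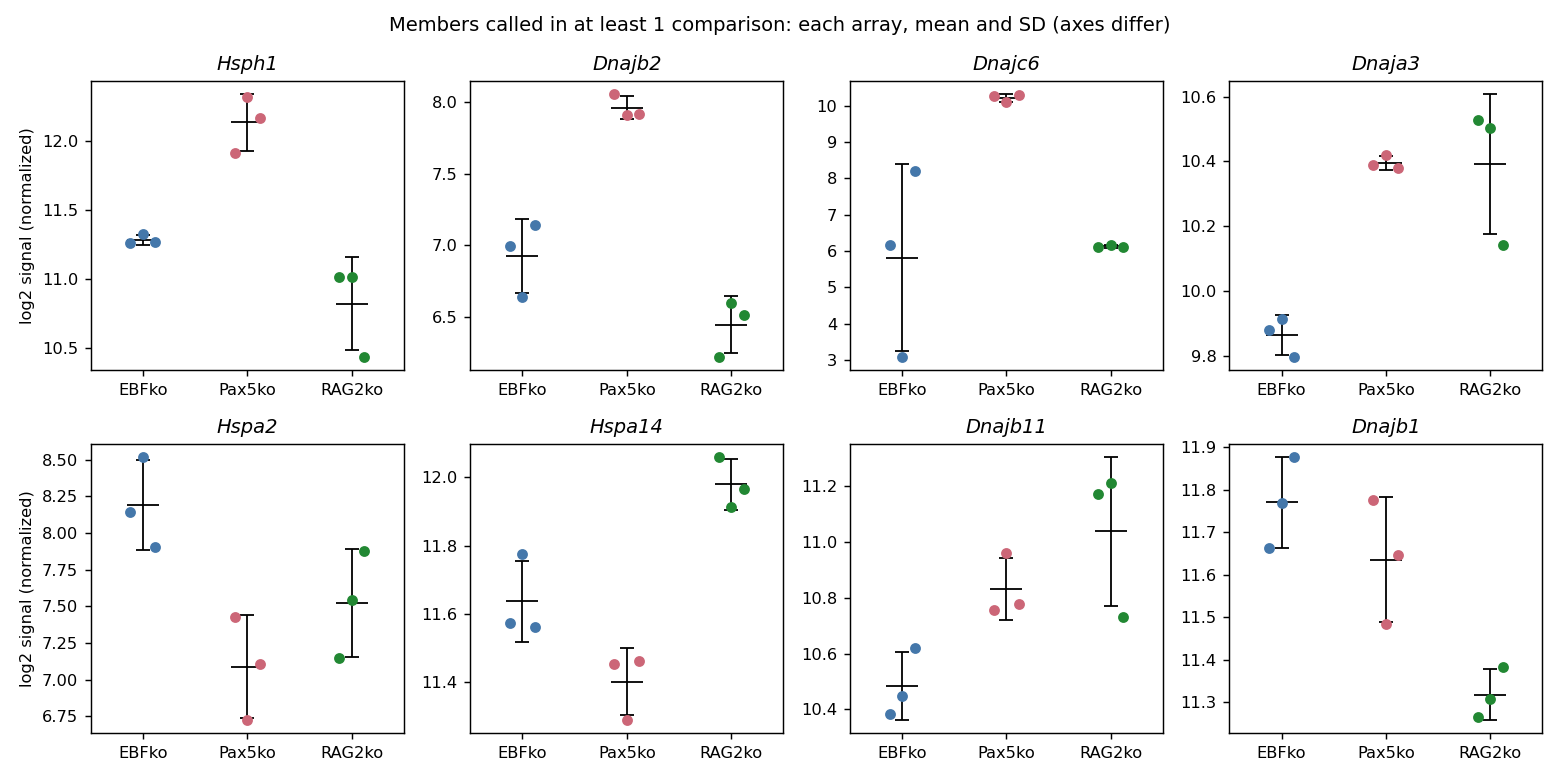
Log2 signal (vertical axis, a different range in each panel) of the 8 members called in at least 1 comparison, with each array as a point, the line's mean as a bar and the SD as whiskers. Hsph1, Dnajb2 and Dnajc6 are highest in all 3 Pax5ko arrays, Dnaja3 is lowest in EBFko, and RAG2ko replicate 3, the rightmost point of its group, is lowest of its line for Hsph1, Dnaja3 and Dnajb11.

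Among DnaJ proteins of type A, Dnaja3 alone passed. Dnaja3 works with the Hsp70 of mitochondria, and its log2 signals were 9.88, 9.91 and 9.80 in EBFko, 10.39, 10.42 and 10.38 in Pax5ko and 10.53, 10.50 and 10.14 in RAG2ko. All EBFko arrays lay below all others. The difference was 0.53 ± 0.13 for Pax5ko (adjusted p = 0.0434) and 0.53 ± 0.13 for RAG2ko (adjusted p = 0.0262), and 0.65 for RAG2ko without its replicate 3 (adjusted p = 0.00423). Another probe set of Dnaja3 at 9.02 to 9.60 overlapped between EBFko and Pax5ko. By it all RAG2ko arrays, at 9.47 to 9.60, lay above all EBFko arrays, at 9.02 to 9.29. Averaging the probe sets ended both calls, at 0.43 for Pax5ko (adjusted p = 0.629) and 0.16 for RAG2ko (adjusted p = 0.817). That average includes a dim probe set at 1.34 to 5.89, below 6 on every array. Leaving out any 1 EBFko array or RAG2ko replicate 1 or 2 ended both calls as well, and leaving out any 1 Pax5ko array ended that for Pax5ko. The general Hsp70 partners Dnaja1 and Dnaja2 ran between 12.98 and 13.68 on all arrays, with differences of -0.30 to 0.04 and intervals within -0.61 to 0.32. Dnaja4 was dim.

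Among the DnaJ proteins of type B, Dnajb1 and Dnajb11 passed in RAG2ko against EBFko. Dnajb1 is the stress-inducible partner of cytosolic Hsp70, with log2 signals of 11.66, 11.77 and 11.88 in EBFko, 11.78, 11.48 and 11.65 in Pax5ko and 11.26, 11.31 and 11.38 in RAG2ko. All RAG2ko arrays lay below all others by this probe set, its brightest. Dnajb1 was lower in RAG2ko than in EBFko by 0.45 ± 0.12 (adjusted p = 0.0341, and 0.0357 at -0.48 without RAG2ko replicate 3), a 1.37-fold difference. The difference from Pax5ko of -0.32 ± 0.12 missed the threshold (adjusted p = 0.116). The call was lost without any 1 of the 3 EBFko arrays, without Pax5ko replicate 3 and without RAG2ko replicate 1 or 2. With arrays centred on their medians the Dnajb1 difference was -0.27 (adjusted p = 0.387). A second probe set gave 11.24, 11.26 and 11.37 in EBFko, 11.03, 10.69 and 11.02 in Pax5ko and 11.02, 10.91 and 11.16 in RAG2ko. By it RAG2ko and Pax5ko overlapped and both lay below EBFko. With probe sets averaged the call was lost, at -0.36 (adjusted p = 0.110).

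Dnajb5 was not called but by its brightest probe set its RAG2ko signals of 7.88, 8.04 and 8.07 lay above all others, which ran from 6.60 to 7.68. The differences by that probe set were 1.01 ± 0.32 against EBFko (adjusted p = 0.0599) and 1.07 ± 0.32 against Pax5ko (adjusted p = 0.0574). Its other probe sets, at 6.61 to 7.07 and 5.77 to 6.58 in RAG2ko, overlapped the other lines. Dnajb6, which prevents protein aggregates, gave 12.06 to 12.60 over the 9 arrays by its brightest probe set with no call. A dimmer probe set of Dnajb6 at 7.68, 7.85 and 7.62 in RAG2ko lay above all others at 6.22 to 7.18, with called differences of 1.04 ± 0.26 from EBFko (adjusted p = 0.038) and 1.29 ± 0.26 from Pax5ko (adjusted p = 0.021) in the fit over every probe set. Dnajb12 at 7.97 to 8.83 and Dnajb8 at 5.46 to 6.74 were not called. Dnajb3 and Dnajb7 were dim.

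Apart from Dnajc6, no DnaJ protein of type C was called. Dnajc7, which carries clients between Hsp70 and Hsp90, gave 12.16 to 12.25 in EBFko and 11.77 to 11.94 in Pax5ko without overlap, at -0.35 ± 0.10 (adjusted p = 0.082). Dnajc9, a histone chaperone, gave 12.40 to 12.59 in Pax5ko and 12.85 to 13.12 in RAG2ko, again without overlap, at 0.44 ± 0.13 (adjusted p = 0.058). Both passed when signals below 64 were raised to 64, at adjusted p of 0.00968 and 0.0254. Their own signals lie above that floor, so their differences stayed the same and only the standard errors fell, to 0.06 and 0.10. The setting called 14.3% and 21.3% of all genes in these comparisons, against 10.7% and 17.9% in the main fit. These passes thus hold no further measurement of Dnajc7 or Dnajc9. Dnajc1, Dnajc4, Dnajc5, Dnajc8 and Dnajc15 had differences within -0.53 to 0.38. A second probe set of Dnajc1 was called higher in RAG2ko than in EBFko (1.12 ± 0.23, adjusted p = 0.021), with 6.90, 7.22 and 7.33 in EBFko against 7.93, 8.58 and 8.31. By it the Pax5ko arrays, at 7.86 to 8.36, lay above all EBFko arrays as well. With probe sets averaged Dnajc1 was called higher than in EBFko in Pax5ko (0.69, adjusted p = 0.0445) and in RAG2ko (0.67, adjusted p = 0.0286).

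The abundant Hsp70 and Hsp90 members had no call by their brightest probe sets. Hspa8, the constitutive Hsp70 of the cytosol, read 14.49 to 14.81 on all 9 arrays, and Hspa9, the Hsp70 of mitochondria, read 12.94 to 13.39. Together with Hspa5, Hsp90aa1 and Hsp90ab1 these 5 genes had, by those probe sets, differences of -0.27 to 0.29 and intervals within -0.51 to 0.59. At an unadjusted p under 0.05 there were 0, 1 and 0 of them in Pax5ko against EBFko, RAG2ko against Pax5ko and RAG2ko against EBFko. Over all 54 members that threshold gave 4 higher and 3 lower, 4 higher and 6 lower, and 4 higher and 5 lower. The share of all genes at it is not given here, so counts at an unadjusted p are not weighed against all genes. The abundant gene at that threshold was Hsp90ab1, the constitutive cytosolic Hsp90. Its signals of 14.31, 14.25 and 14.27 in RAG2ko lay below all others at 14.38 to 14.60. Its difference from Pax5ko was -0.27 ± 0.10 (adjusted p = 0.094), which passed at the same size with eBayes trend and robust settings (adjusted p = 0.00423). Hsp90aa1, the inducible form, read 14.60 to 14.86 outside RAG2ko and 14.44 to 14.61 in it. Other bright probe sets differed from these. A second one of Hsp90ab1 gave 14.08, 14.14 and 14.12 in EBFko, 14.38, 14.52 and 14.43 in Pax5ko and 14.29, 14.34 and 14.33 in RAG2ko, so that RAG2ko lay above EBFko. One of Hsp90aa1 gave 14.61, 14.55 and 14.64 in EBFko, 14.46, 14.32 and 14.47 in Pax5ko and 14.22, 14.15 and 14.01 in RAG2ko, without overlap, at -0.48 ± 0.14 for RAG2ko against EBFko (adjusted p = 0.063). Neither of these was called in the fit over every probe set.

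Hspa1a, the Hsp70 most strongly induced by heat, was of medium brightness. Its signals were 8.74, 8.01 and 9.12 in EBFko, 8.60, 8.06 and 9.01 in Pax5ko and 8.64, 8.79 and 8.73 in RAG2ko. The lines overlapped, with differences of -0.06 ± 0.33, 0.16 ± 0.33 and 0.09 ± 0.33 in the order of the comparisons above. Its copy Hspa1b is nearly identical and cannot be told apart from it here. Hsf1, the factor that drives the heat shock response, read 8.87 to 9.52 with no call, differences of -0.04 to 0.25 and intervals within -0.40 to 0.61.

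Hspa2, an Hsp70 best known from male germ cells, gave 8.15, 8.52 and 7.91 in EBFko, 7.43, 6.73 and 7.11 in Pax5ko and 7.14, 7.54 and 7.88 in RAG2ko. EBFko lay above both other lines without overlap. It was 2.15-fold lower in Pax5ko (-1.10 ± 0.27, adjusted p = 0.0427), and the difference of RAG2ko from EBFko, -0.67 ± 0.27, did not pass (adjusted p = 0.126). Leaving out any 1 array of EBFko or Pax5ko, or RAG2ko replicate 2, ended the call.

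Hspa14 belongs to a complex that sits on ribosomes with a DnaJ partner. It gave 11.58, 11.77 and 11.56 in EBFko, 11.45, 11.29 and 11.46 in Pax5ko and 12.06, 11.91 and 11.96 in RAG2ko. RAG2ko lay above both other lines. The difference from Pax5ko was 0.58 ± 0.11 (adjusted p = 0.0136, and 0.0210 at the same size without RAG2ko replicate 3), a 1.49-fold rise, and that from EBFko was 0.34 ± 0.11 (adjusted p = 0.074). The call was lost without RAG2ko replicate 1. Hspa1l and Hspa12b, at 4.44 to 7.10, and Hspa12a were not called. Hspa12a read 2.24, 4.87 and 7.0 in RAG2ko, so its call without replicate 3 rested on its low arrays 1 and 2.

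Chaperonins had no call and narrow ranges by their brightest probe sets. Cct2, Cct3, Cct4, Cct5, Cct6a, Cct7 and Cct8 ran from 13.05 to 14.41 over all arrays, with differences of -0.34 to 0.15 and intervals within -0.72 to 0.53. Of the 9 chaperonins, 0 were called in any comparison in limma. At an unadjusted p under 0.05 there were 0, 0 and 1 in Pax5ko against EBFko, RAG2ko against Pax5ko and RAG2ko against EBFko, the 1 being Cct2 at -0.24 ± 0.10. As above, these counts are not weighed against all genes. Cct2 was 14.27, 14.39 and 14.41 in EBFko, 14.15, 14.17 and 14.08 in Pax5ko and 14.11, 14.06 and 14.19 in RAG2ko, so EBFko lay above both other lines by this probe set. The other 2 probe sets of Cct2 overlapped between the lines, with -0.01 and -0.05 for RAG2ko against EBFko. By its brightest probe set Cct2 passed with eBayes trend and robust settings at -0.22 (adjusted p = 0.0358) in Pax5ko and -0.24 (adjusted p = 0.0162) in RAG2ko. The testis form Cct6b was dim. Tcp1, which completes the ring but is no member, was not called either, at 14.03 to 14.28.

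Hspe1, the small chaperonin of mitochondria, varied within RAG2ko. Its signals were 13.47, 13.29 and 13.32 in EBFko, 13.64, 13.51 and 13.57 in Pax5ko and 13.91, 13.87 and 13.04 in RAG2ko. Without replicate 3 the order of the lines was EBFko, Pax5ko and RAG2ko with no overlap, while with it RAG2ko spanned all arrays. Over 3 arrays the differences were 0.22 ± 0.23, 0.03 ± 0.23 and 0.25 ± 0.23 in the order of the comparisons above and did not pass. Hspd1, its larger partner, which is transcribed in the opposite direction from a shared promoter region, read 14.43, 14.42 and 13.86 in RAG2ko and 14.16 to 14.37 elsewhere.

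RAG2ko replicate 3 was the lowest of its line for 29 of 54 members, against 37.4% of all genes, and for 7 of 9 chaperonins. Its members lay a median of 0.15 below the mean of the other RAG2ko arrays, and the chaperonins 0.32 below, while all genes lay 0.03 above. Without quantile normalization these medians were -0.26 for members, -0.43 for chaperonins and 0.08 for all genes. Beside Hspe1, Hspa9 (13.37, 13.39 and 12.94), Cct6a (14.01, 13.99 and 13.45), Dnaja1 (13.37, 13.36 and 12.98) and Dnajc15 (10.80, 10.78 and 9.97) were lower on it. By their brightest probe sets Hspb1, Dnajb12 and Dnajc1 were higher on it. Stromal transcripts were higher on the same array, as given above, and their part in these differences was not tested.

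**Figure D3:**
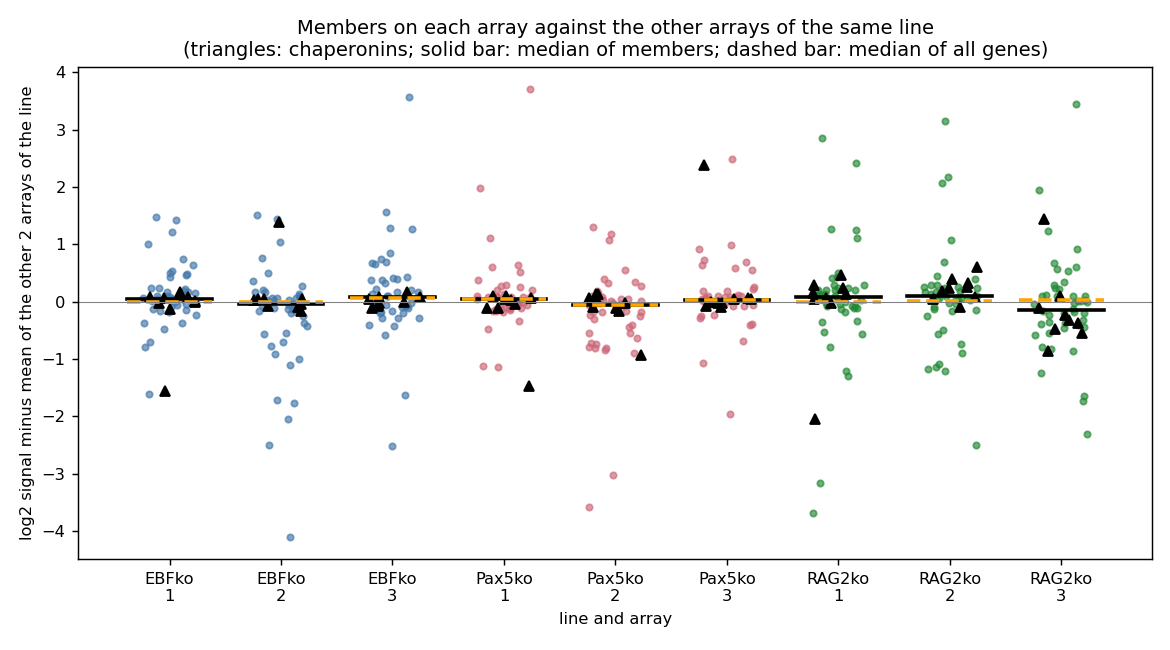
Log2 signal of each member minus its mean on the other 2 arrays of the same line (vertical axis) for the 9 arrays, with chaperonins as triangles, the median of the members as a solid bar and the median of all genes as a dashed bar. On RAG2ko replicate 3 the members' median is -0.15 and that of all genes 0.03, whereas on the other arrays both lie between -0.06 and 0.10.

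Small heat shock proteins had no call in any comparison in the limma fit to all 9 arrays, and 0, 0 and 1 of the 5 tested passed at an unadjusted p under 0.05 in RAG2ko against Pax5ko, RAG2ko against EBFko and Pax5ko against EBFko, the 1 being Hspb3. Here too the counts are not weighed against all genes. Hspb3 gave 7.77, 8.61 and 6.56 in EBFko and 5.53, 2.40 and 6.45 in Pax5ko without overlap, at -2.85 ± 1.07 (adjusted p = 0.155), or -1.50 with signals raised to 64. Hspb1, which binds unfolding proteins and actin filaments, gave 9.88, 8.37 and 10.38 in EBFko, 9.63, 9.14 and 9.93 in Pax5ko and 7.16, 7.47 and 9.25 in RAG2ko. By this probe set, its brightest, it was lowest on RAG2ko replicates 1 and 2, and lowest within EBFko and Pax5ko on replicate 2. Another probe set, at 3.12, 6.26 and 8.42 in RAG2ko, had the same lowest arrays. A further one, above 6 on all arrays, gave 7.61, 7.04 and 6.28 in RAG2ko. Of all 9 arrays that one was highest on RAG2ko replicate 1 and lowest on RAG2ko replicate 3, so the probe sets of Hspb1 disagreed. The stromal mean was 9.40, 8.15 and 9.57 in EBFko, 9.19, 7.98 and 9.73 in Pax5ko and 5.44, 6.40 and 8.75 in RAG2ko, and it too was lowest on replicate 2 within EBFko and Pax5ko. Of the 23 stromal genes tested, 0 were called in RAG2ko against Pax5ko and 2 were called lower against EBFko, with median differences of -2.28 and -2.56, and the part of stromal cells in the signal of Hspb1 was not tested. In such bulk samples fewer cells of a type and less RNA per cell cannot be told apart. The difference of Hspb1 was -1.61 ± 0.69 from Pax5ko and -1.58 ± 0.69 from EBFko (both adjusted p = 0.15). With array weights it was called, at -2.16 (adjusted p = 0.0224) and -2.02 (adjusted p = 0.0315), and with probe sets averaged it was called against EBFko, at -1.70 (adjusted p = 0.0490). That average includes a dim probe set at 2.94 to 6.14. Hspb2 read 6.12 to 7.68 over all arrays with its lowest signal on replicate 2 of each line, Hspb8 read 4.69 to 7.09, and Hspb7 was dim.

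**Figure D4:**
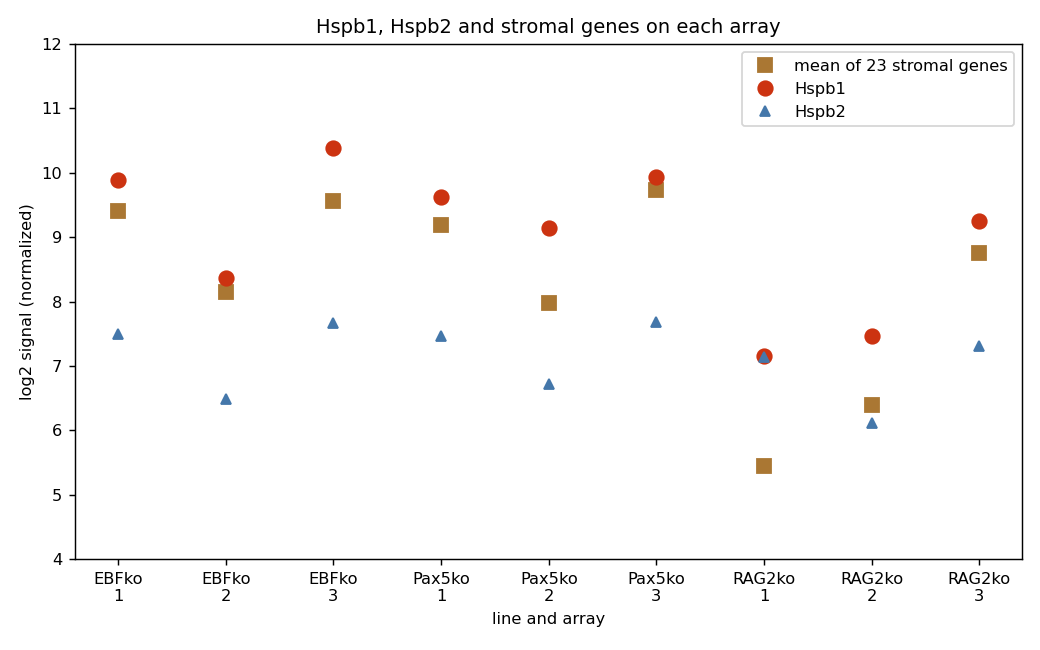
Log2 signal (vertical axis) of Hspb1 and Hspb2, each by its brightest probe set, and the mean of 23 stromal genes on each of the 9 arrays (horizontal axis). Hspb1 and the stromal mean are both lowest on RAG2ko replicates 1 and 2, at 7.16 and 7.47 for Hspb1 and 5.44 and 6.40 for the stromal mean, and both are higher on replicate 3.

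The remaining members were 7 dim genes whose means lay below 6 in every line (Cct6b, Dnaja4, Dnajb3, Dnajb7, Hsf2bp, Hsf4 and Hspb7), for which no difference is given, and Tmem132a and Vasn, which were not called. One probe set described as DnaJ A3 leads by accession to Vasn and was kept under that name.

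The endoplasmic reticulum holds its own chaperone set. Hspa5 (BiP), the Hsp70 of this compartment and the standard readout of its stress response, gave 14.21, 14.10 and 14.33 in EBFko, 14.50, 14.48 and 14.52 in Pax5ko and 14.38, 14.41 and 14.08 in RAG2ko. By this probe set, its brightest, Pax5ko lay above both other lines, but the difference from EBFko of 0.29 ± 0.13 did not pass (adjusted p = 0.220). By the other probe set of Hspa5 the lines overlapped, at 12.82 to 13.19 in EBFko, 13.13 to 13.33 in Pax5ko and 12.85 to 13.15 in RAG2ko. Hsp90b1, the Hsp90 of the compartment and no member, exceeded EBFko in Pax5ko by 0.45 ± 0.11 (adjusted p = 0.0381), with 13.83, 13.84 and 13.91 against 13.54, 13.31 and 13.38. Dnajb11, a lumenal partner of Hspa5, gave 10.38, 10.45 and 10.62 in EBFko, 10.76, 10.96 and 10.78 in Pax5ko and 11.17, 11.21 and 10.73 in RAG2ko. EBFko was the lowest line, and RAG2ko was higher than it by 0.55 ± 0.16 (adjusted p = 0.0467), or 0.71 without RAG2ko replicate 3 (adjusted p = 0.00872). That call was lost without any 1 of the other 8 arrays.

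Dnajc3, which slows the stress kinase PERK and carries the stress element shown above, was lowest in RAG2ko. Its brightest probe set gave 11.06, 10.83 and 11.34 in EBFko, 11.12, 11.20 and 11.37 in Pax5ko and 10.61, 10.59 and 10.88 in RAG2ko. RAG2ko lay below Pax5ko without overlap, at -0.54 ± 0.17 (adjusted p = 0.067). Another 2 of its probe sets were called lower in RAG2ko than in Pax5ko in the fit over every probe set, at -0.93 ± 0.18 (adjusted p = 0.020) and -0.69 ± 0.17 (adjusted p = 0.047). By its brightest probe set Dnajc3 was also called at the same difference with a filter at 6 (adjusted p = 0.0416), with signals raised to 64 (adjusted p = 0.0489), with the replicate block (adjusted p = 0.0415) and with eBayes trend and robust settings (adjusted p = 0.0207). It was called with array weights at -0.60 (adjusted p = 0.0198) and with probe sets averaged at -0.64 (adjusted p = 0.0318) as well. Dnajc3 was not called without quantile normalization, with arrays centred on their medians, without a filter or with only the 6 arrays compared. Nor was it called without probe sets that match several transcripts, or when any 1 array other than RAG2ko replicate 3 was left out. The trend and robust settings also called Hspa5 higher in Pax5ko than in EBFko (adjusted p = 0.0496).

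Partner genes were taken from 6 lists of exchange factors, co-chaperones, prefoldin and tubulin cofactors, folding genes of the endoplasmic reticulum, mitochondrial proteases and relatives of the small heat shock proteins. Of 65 partners tested, 4 were higher and 4 lower in Pax5ko than in EBFko, 9 higher and 6 lower in RAG2ko than in Pax5ko, and 8 higher and 5 lower in RAG2ko than in EBFko. These are 12.3%, 23.1% and 20.0% of the partners, against 10.7%, 17.9% and 21.8% of all genes. The median differences of the partners were 0.00, -0.05 and 0.05. Of the 26 called partner differences with RAG2ko that the naming rule picked, 24 kept their call without RAG2ko replicate 3. Those that lost it were Sugt1 against Pax5ko (0.56, adjusted p = 0.0699) and Ddit3 against EBFko (0.84, adjusted p = 0.0563).

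In the list for the endoplasmic reticulum, 14 of 20 genes were tested. It had 1 higher and 2 lower in Pax5ko against EBFko, and 4 higher and 1 lower in each comparison with RAG2ko, which is 21.4%, 35.7% and 35.7% of the 14 against 10.7%, 17.9% and 21.8% of all genes. Atf4 and Ddit3, transcription factors of the integrated stress response, were higher in RAG2ko. Atf4 gave 13.13, 13.00 and 12.91 in RAG2ko and 11.85 to 12.24 elsewhere, with differences of 1.01 ± 0.14 from Pax5ko (adjusted p = 0.00318) and 0.95 ± 0.14 from EBFko (adjusted p = 0.00329). Ddit3 gave 9.73, 9.52 and 9.97 in RAG2ko and 8.13 to 9.11 elsewhere, with differences of 1.22 ± 0.23 (adjusted p = 0.0119) and 0.96 ± 0.23 (adjusted p = 0.0254). The call of Ddit3 against EBFko was lost without RAG2ko replicate 1 or 3 and without EBFko replicate 2 or 3.

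Xbp1, the factor that widens the folding capacity of secretory cells, was lower in RAG2ko. It gave 12.31, 12.28 and 12.10 in RAG2ko and 13.19 to 13.75 elsewhere, with differences of -1.20 ± 0.16 from Pax5ko (adjusted p = 0.00288) and -1.18 ± 0.16 from EBFko (adjusted p = 0.00234). Herpud1 and Edem1, which help to dispose of misfolded proteins, were lowest in Pax5ko. The Herpud1 difference of Pax5ko from EBFko was -1.02 ± 0.23 (adjusted p = 0.0329), and the gene was higher in RAG2ko than in Pax5ko by 1.34 ± 0.23 (adjusted p = 0.00749). For Edem1 the same differences were -0.76 ± 0.10 (adjusted p = 0.00413) and 0.52 ± 0.10 (adjusted p = 0.0137). The order of the other lines was not shared. Edem1 was lower in RAG2ko, at 10.42 to 10.58, than in EBFko, at 10.66 to 10.78, whereas Herpud1 overlapped between them. Sdf2l1, which binds Dnajb11, was higher than in EBFko in both other lines, by 0.63 ± 0.16 (adjusted p = 0.0456) and 0.64 ± 0.16 (adjusted p = 0.0251).

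**Figure D5:**
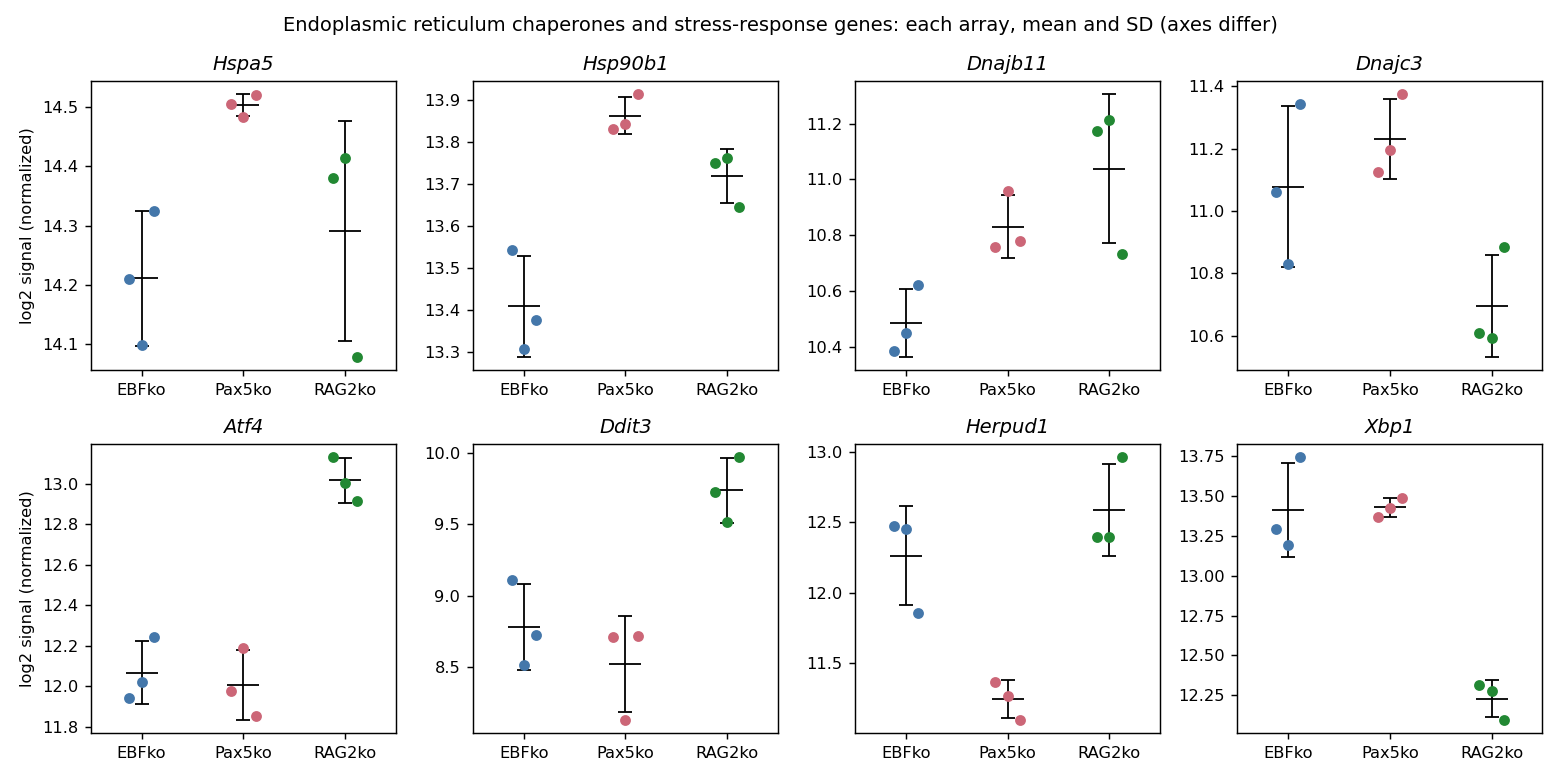
Log2 signal (vertical axis, a different range in each panel) of 4 chaperones and 4 stress-response genes of the endoplasmic reticulum, with each array as a point, the line's mean as a bar and the SD as whiskers. Atf4 and Ddit3 are highest and Xbp1 lowest in all RAG2ko arrays, and Herpud1 is lowest in all Pax5ko arrays.

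Of 13 exchange factors and regulators of Hsp70, 1 was higher and 1 lower in each comparison with EBFko and 1 lower in RAG2ko against Pax5ko, and of 16 co-chaperones of Hsp90, 1 was higher and 1 lower in each comparison. Hspbp1, an exchange factor and inhibitor of Hsp70, gave 9.05, 9.24 and 9.07 in EBFko, 10.29, 10.34 and 10.10 in Pax5ko and 9.76, 9.98 and 9.81 in RAG2ko. It was higher than in EBFko by 1.13 ± 0.12 in Pax5ko (adjusted p = 0.00173) and by 0.73 ± 0.12 in RAG2ko (adjusted p = 0.00541). Fkbp5, an Hsp90 co-chaperone of steroid receptors, gave 11.60, 11.64 and 11.60 in EBFko, 10.35, 10.60 and 10.49 in Pax5ko and 10.23, 10.35 and 9.84 in RAG2ko. It was lower than in EBFko by 1.14 ± 0.15 (adjusted p = 0.00417) and by 1.48 ± 0.15 (adjusted p = 0.000656). These 4 calls held under every tested alternative of the 21, and the untested ratios kept their directions.

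Ptges3, the Hsp90 co-chaperone p23, had its highest signals in Pax5ko, at 14.03, 14.29 and 14.11, and read 13.48 to 13.65 elsewhere. Ptges3 exceeded EBFko in Pax5ko by 0.62 ± 0.11 (adjusted p = 0.0131) and lower in RAG2ko than in Pax5ko by 0.55 ± 0.11 (adjusted p = 0.0143). Clpx, a mitochondrial unfoldase, had the same order, at 0.51 ± 0.10 (adjusted p = 0.0212) and -0.45 ± 0.10 (adjusted p = 0.0236). Bag2, which restrains the ubiquitin ligase Stub1, differed by -1.10 ± 0.22 between Pax5ko and EBFko (adjusted p = 0.0208). Bag3, which links Hsp70 to autophagy, gave 7.69, 7.96 and 8.24 in EBFko, 6.65, 6.47 and 7.29 in Pax5ko and 4.78, 6.50 and 5.98 in RAG2ko. It was lower in RAG2ko than in EBFko by 2.21 ± 0.44 (adjusted p = 0.0117), or by 1.80 with signals below 64 raised to 64.

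Oma1, a stress-activated protease of the mitochondrial inner membrane, gave 8.81, 8.85 and 8.81 in RAG2ko and 9.73 to 10.05 elsewhere, lower by 1.14 ± 0.11 than in Pax5ko (adjusted p = 0.000662) and by 0.98 ± 0.11 than in EBFko (adjusted p = 0.000833). In the prefoldin and tubulin list of 13, Tbce was higher in RAG2ko than in Pax5ko by 0.79 ± 0.13 (adjusted p = 0.0073) and Tbcb lower by 0.57 ± 0.15 (adjusted p = 0.0379). Smaller called differences in RAG2ko against Pax5ko were 0.71 ± 0.19 for the prefoldin subunit Pfdn4 (adjusted p = 0.0378), 0.55 ± 0.15 for Sugt1 (adjusted p = 0.0474) and -0.44 ± 0.10 for St13 (adjusted p = 0.0267). For Pfdn4, Sugt1 and St13 these calls were lost in 11, 15 and 10 of 21 alternatives, a number that includes the untested ratios. Against EBFko, Tbca (0.48 ± 0.12, adjusted p = 0.0252) and Tomm70a (0.48 ± 0.11, adjusted p = 0.0195) were higher in RAG2ko and Tbcb was lower (-0.60 ± 0.15, adjusted p = 0.0278). Cryab, a small heat shock relative, was called higher in RAG2ko by a probe set marked as matching several transcripts, at 0.98 ± 0.16 from Pax5ko (adjusted p = 0.00573), but its probe sets averaged gave -1.64, so no direction is given for the gene.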

How the data were processed

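Total RNA of 9 samples was biotin-labelled by in vitro transcription and read on Affymetrix mouse arrays of 45101 probe sets, per the labels' protocols. The deposited intensity values are linear signals per probe set and array, and GCRMA is the tool named in the submitters' processing notes, with the scaling step not given in the sources used here. The authors also deposited 1 ratio per probe set and line against an unstated reference. These ratios have no replicates and entered only as an alternative without a test.

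Signals were taken to log2 and quantile normalized, 64 control probe sets were left out, and probe sets above 4 on at least 3 arrays were kept. Genes were named by accession through RefSeq, by shared description or by full name (47 names matched by hand), which named 60, 23 and 45 of the 128 member probe sets. The brightest probe set stood for a gene. limma 3.58.1 in R 4.3.3 was fitted to all 9 arrays, with Benjamini-Hochberg adjustment over 9349 genes and a call at an adjusted p under 0.05. Errors after ± are standard errors and intervals are 95%. The number of arrays limits the precision. No 2 arrays were identical, and their highest correlation was 0.951.

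On simulated data of 9349 genes with 200 changed, the fit found 31%, 29% and 37% of genes shifted by a log2 of 1, and 61%, 50% and 66% of those shifted by 2, in Pax5ko against EBFko, RAG2ko against Pax5ko and RAG2ko against EBFko, none with the wrong sign. False calls numbered 10, 0 and 5, which were 9.80%, 0% and 4.63% of all calls made.

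Members and lists were chosen with earlier results of these data known. Genes named with values were listed members, called members whose groups did not overlap (up to 10 per direction), up to 2 called rises and falls per partner list and comparison, and members whose probe sets disagreed. Others, chosen after their values were seen, were Dnajb5, Dnajc7, Dnajc9, the non-members Hsp90b1, Hspd1 and Tcp1, and probe sets other than the brightest. Alternatives changed the scaling, filter, floor, probe set rule, variance model, arrays and block.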

Additional observations from a re-analysis of the deposited data

How the results depend on the processing

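Over 46 named differences and 966 alternatives, 750 kept direction and, where a test was run, the call. A further 212 kept direction and lost the call, and 4 reversed. The 21 alternatives of each difference include the deposited ratios, which have no test, so there only the direction could be kept. The reversals were Cryab, at -1.643 (RAG2ko minus Pax5ko) and -1.383 (RAG2ko minus EBFko) with probe sets averaged and -3.685 and -3.046 without probe sets that match several transcripts. Counts follow as higher and lower calls in Pax5ko against EBFko, RAG2ko against Pax5ko and RAG2ko against EBFko. Those without a filter include Hsf2, which the main filter left out, at 2.37 (adjusted p = 0.0322) in Pax5ko against EBFko. In RAG2ko against Pax5ko it was called at -3.41 (adjusted p = 0.00518). All Hsf2 signals, at -0.47 to 4.64, lay below 6. Dnaja3 and Dnajc6 lost their calls in Pax5ko against EBFko without a filter. The members' counts of 4 and 1, 1 and 3, and 2 and 1 became 2 and 0, 0 and 3, and 0 and 0 with arrays centred on their medians, 3 and 1, 2 and 3, and 1 and 2 without quantile normalization, 3 and 1, 1 and 4, and 1 and 1 without a filter, 4 and 2, 3 and 5, and 4 and 1 with a filter at 6, 4 and 3, 2 and 6, and 3 and 4 with signals below 64 raised to 64, 5 and 3, 3 and 5, and 4 and 3 with eBayes trend and robust settings, 4 and 2, 2 and 7, and 3 and 3 with array weights, 3 and 0, 2 and 3, and 0 and 0 with only the 6 arrays compared, and 2 and 1, 0 and 3, and 0 and 0 for calls of at least 2-fold. The partners' counts of 4 and 4, 9 and 6, and 8 and 5 became 2 and 1, 6 and 2, and 9 and 4 with centring, 6 and 6, 11 and 10, and 10 and 5 with a filter at 6, 10 and 7, 11 and 11, and 11 and 7 with raised signals, 9 and 6, 11 and 11, and 12 and 5 with eBayes trend and robust settings, 9 and 5, 12 and 12, and 11 and 7 with array weights, 3 and 5, 6 and 6, and 5 and 5 with probe sets averaged, 4 and 4, 6 and 4, and 4 and 4 with only the 6 arrays compared, and 1 and 3, 3 and 2, and 0 and 3 for calls of at least 2-fold. Adjusted over every probe set, an alternative chosen after seeing the data, the members had 1 and 0, 1 and 2, and 0 and 0 and the partners 2 and 3, 5 and 3, and 4 and 4. Leaving out 1 array at a time gave the members 1 to 3 and 0 to 1, 0 to 2 and 2 to 4, and 0 to 3 and 0 to 3, and the partners 1 to 6 and 2 to 5, 5 to 12 and 3 to 8, and 3 to 11 and 4 to 7. Over these alternatives, calls of at least 2-fold and adjustment over every probe set aside, 6.61% to 16.9%, 11.8% to 28.7% and 15.1% to 31.9% of all genes were called. The cause was not tested.

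Same-numbered arrays correlated at -0.04 to 0.16 in their deviations from the line means. The highest correlation with an array of another number was -0.02 to 0.12. For replicates 2 and 3 the same-numbered correlation was the higher one in every comparison, and for replicate 1 only in Pax5ko against EBFko. The labels name no pairing, and the main fit did not take the numbers as pairs. What same-numbered arrays may share was not tested. With the replicate block the members had 1 and 0, 1 and 3, and 2 and 0 calls and the partners 2 and 2, 6 and 3, and 5 and 5. Centring on array medians moved the median of all genes to 0.09 in Pax5ko against EBFko, from -0.02, and the share of all calls that were higher in RAG2ko against Pax5ko from 54.8% to 44.4%. Between 41.0% and 47.3% of probe sets per array lay below a signal of 64, where differences are least certain.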
